A study of Oryctolagus cuniculus with 12 samples.

Results

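The comparison described here is osteoarthritis (OA) against control in the superficial zone of the rabbit (Oryctolagus cuniculus) temporomandibular joint, the joint of the jaw. It uses the 6 libraries labelled as superficial zone cells, 3 OA and 3 control, of 12 bulk RNA sequencing libraries in all. The other 6 libraries come from the condylar cartilage and serve only for comparison. All animals are labelled WT. OA was induced surgically by punching a hole of 2.5 mm in the posterior-lateral part of the articular disc, with the disc attachments left intact. The labels do not give the time between surgery and collection, the age of the rabbits, whether control joints were operated on, or which libraries came from which animal.

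The superficial zone of the mandibular condyle is a thin fibrous layer that faces the joint space. Its cells make type I collagen and lubricin, the lubricating proteoglycan encoded by PRG4, and the layer contains dividing progenitor cells that supply the chondrocytes of the cartilage beneath. In OA, fibrous and cartilage matrix is remodelled by matrix metalloproteinases and by ADAMTS proteases, which cut aggrecan and related proteoglycans. Genes of DNA replication and mitosis are expressed in dividing cells, so their messenger RNA in a tissue sample reflects how many cells divide and how much RNA each makes. In bulk samples, fewer cells of a type and less RNA per cell cannot be told apart.

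The libraries held 8329096 to 12168450 counts in control and 10710067 to 16769536 in OA, over 14621 genes. OA 2 and OA 3 were near-duplicates: their counts varied by 2.38 times counting noise on average, with a biological coefficient of variation (the spread between libraries beyond counting noise, as a share of the level) of 0.0404. Other pairs within a superficial zone group varied by 76.4 to 676 times counting noise, with coefficients of 0.198 to 0.578. OA 2 and OA 3 were therefore summed and counted as 1 sample in the tests, which left n = 2 for OA and n = 3 for control, and levels below are given for all 6 libraries. OA 1 stood apart from the other 5 libraries, at 120 on the first principal component (49.5% of the variance) against −34.1 to −4.59. Messenger RNA of the mitochondrial genome made up 0.120% of its counts and 0.905% to 2.12% in the others, while long non-coding RNA made up 5.11% and 2.44% to 3.52%. Its 50 most abundant genes took 51.2% of counts against 29.5% to 31.8%. On the second component (29.9%) the controls lay at 31.3 to 48.1 and the OA libraries at −55.1 to −8.68. Ribosomal RNA took 1.74% to 3.31% of counts in OA and 0.107% to 0.378% in control.

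The labelled tissue was checked against the defining genes of the zone. PRG4 was at 239, 165 and 289 counts per 1000000 (CPM, scaled as described under processing) in control 1, 2 and 3, and at 248, 439 and 449 CPM in OA 1, 2 and 3, against 18.9 to 40.8 CPM in the 3 control condylar cartilage libraries. The 10 tested markers of the superficial zone were detected in every library, with a list median of 7.66 to 8.05 log2 CPM in control and 7.71 to 8.72 in OA. COL2A1, the main collagen of cartilage, was at 6597, 2809 and 12851 CPM in control, 53119 CPM in OA 1, and 2479 and 2556 CPM in OA 2 and 3. OA 1 was thus above all 5 other superficial zone libraries for this cartilage gene. Control condylar cartilage 1, 2 and 3 were at 42759, 56707 and 937 CPM. OA 1 lay between condylar libraries 1 and 2, and every other superficial zone library lay below both. Condylar library 3 stood apart, and its aggrecan gene ACAN was also low, at 436 CPM against 9365 and 11302 CPM. Several cartilage, bone and marrow genes were at a higher level in OA 1 than in the near-duplicate pair, so values without OA 1 are given beside the main results.

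Relatively few genes passed the test over all genes. Of 13699 genes tested, 43 passed an adjusted p of 0.05 (0.314%; edgeR quasi-likelihood test with Benjamini-Hochberg adjustment), of which 33 rose (0.241%) and 10 fell (0.073%). At an unadjusted p under 0.05 there were 1267 genes (9.25%), 899 higher (6.56%) and 368 lower (2.69%). In 1294 genes (9.45%) the 3 OA libraries all lay above the 3 controls, and in 1132 genes (8.26%) all lay below. Among the 43 genes, 42 did not overlap between the groups, 4 encode ribosomal RNA, 3 are long non-coding RNAs, and 20 have no symbol. Over all genes the log2 fold changes had a median of 0.03, which became −0.26 when library totals alone set the scale.

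The count of genes past the test depended on which libraries were used. With the 6 libraries as separate samples 56 genes passed (0.414%), 31 higher (0.229%) and 25 lower (0.185%), of which 25 were among the 43, 58.1% of that list and 44.6% of the 56. Without OA 1, with the summed pair as the 1 OA sample, 577 passed (322 higher and 255 lower, 4.12%), of which 36 were among the 43, and with OA 2 and OA 3 as separate samples in its absence 1416 passed. Without control 1 no gene passed in edgeR, while 761 had an unadjusted p under 0.05. The count was 70 without control 2 and 125 without control 3. Every one of the 43 genes kept its direction without OA 1, and 18 of the 21 genes named by rule that passed also passed without it, the others being CAMP, LTF and S100A8. That fit has 1 OA sample, whose spread is taken from the controls, and when the pair is split its counting error stands in for the spread between animals.

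OA 1 and the pair departed from the controls in different genes. Taking a level at least 2-fold beyond the control range, 109 genes (0.796%) were higher in all 3 OA libraries and 107 (0.781%) were lower. OA 1 alone was higher in 1626 genes (11.9%) and lower in 1631 (11.9%), whereas the pair alone was higher in 200 (1.46%) and lower in 194 (1.42%). In 25 genes (0.182%) OA 1 was higher and the pair lower, and in 3 genes (0.0219%) the reverse held. These counts describe the libraries and carry no test.

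**Figure D1:**
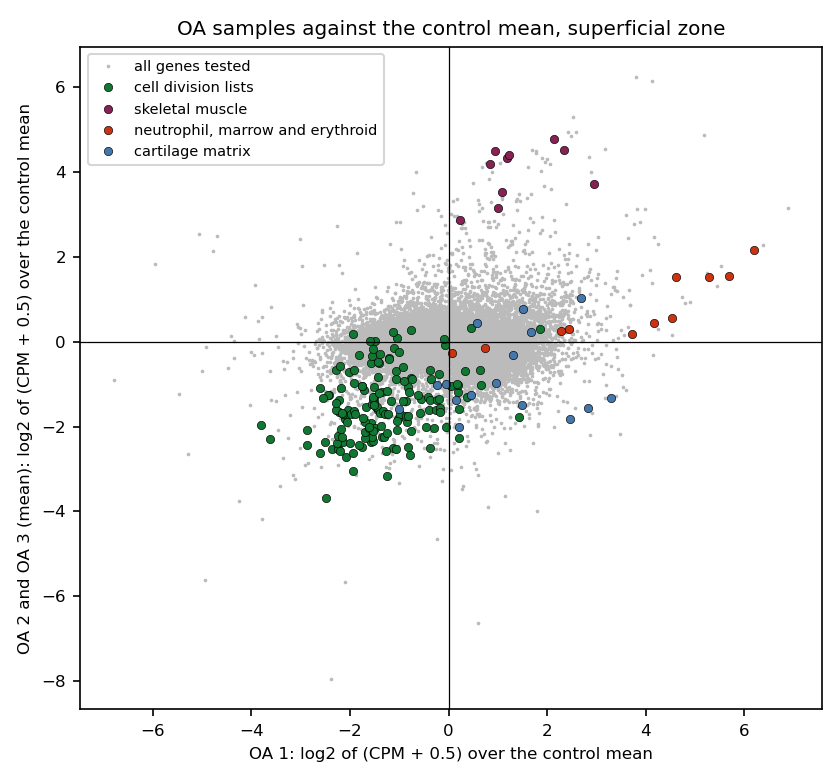
Each point is a gene tested in the superficial zone; the x axis gives the log2 ratio of OA 1 to the control mean and the y axis that of OA 2 and OA 3 (both as CPM + 0.5). Cell division genes lie mostly in the lower left quadrant, skeletal muscle genes are higher mainly in the pair, and neutrophil, marrow and erythroid genes mainly in OA 1.

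The genes farthest beyond the control range in OA 1 alone were erythroid, bone and cartilage genes. BGLAP, which encodes the bone protein osteocalcin, was at 21.4, 10.6 and 11.6 CPM in control, 348 CPM in OA 1, and 17.3 and 15.5 CPM in the pair. SLC4A1, the anion exchanger of red cells, was at 2.37, 0.452 and 2.06 CPM in control, 48.6 CPM in OA 1, and 3.40 and 1.87 CPM in the pair. CYTL1 and TSHZ1 followed the same pattern. For these genes the pair was within or close to the control range, and OA 1 alone stood out. Lower in OA 1 alone were OSTN, which encodes the secreted peptide osteocrin, at 14.3, 19.1 and 31.5 CPM in control, 0 CPM in OA 1, and 9.56 and 8.21 CPM in the pair, together with E2F4, ZBTB11, ASNSD1 and RAB27B.

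The genes farthest beyond the control range in the pair alone were those of skeletal muscle on the higher side: ACTA1, MYOZ1, TNNT3, KLHL31 and MB. On the lower side stood WIF1, a secreted inhibitor of Wnt signalling, at 24.2, 27.8 and 21.4 CPM in control, 30.2 CPM in OA 1, and 2.36 and 1.39 CPM in the pair. Others were the thymidine kinase TK1, ANKRD39, and MYBL2, a transcription factor of the cell cycle. OA 1 also lay below every control for TK1 (6.87 against 12.6 to 21.3 CPM) and MYBL2 (3.86 against 7.81 to 11.6 CPM). It did not reach the 2-fold limit, which was set on CPM + 0.5. For ANKRD39 OA 1 lay above the controls, at 4.72 CPM against 2.49 to 3.72 CPM. COL11A2, a cartilage collagen, was 1 of those higher in OA 1 and lower in the pair, at 1873, 1013 and 2186 CPM in control, 9352 CPM in OA 1, and 482 and 478 CPM in OA 2 and 3. The other 4 of that kind with the largest distance were EXTL1, B4GALNT3, ANK1 and VDR, the vitamin D receptor. In the reverse direction ITLN1 was at 1.46, 1.28 and 1.19 CPM in control, 0 CPM in OA 1, and 6.22 and 8.32 CPM in the pair, and GLCE followed the same pattern.

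Cell division genes lay lower in both OA samples than in control. Taking 7 lists together, from origin licensing to cytokinesis and repair at the replication fork, 157 of 184 listed genes were tested and 152 had a negative log2 fold change (96.8%, against 48.6% of all genes). The median was −1.65, against 0.03 for all genes. The median level of the 157 genes was 8.45, 9.94 and 8.24 CPM in control 1, 2 and 3, and 3.29, 2.53 and 2.40 CPM in OA 1, 2 and 3, so that both OA samples lay below the controls. In 116 genes (73.9%, against 8.26% of all genes) the 3 OA libraries all lay below the 3 controls, and in 1 gene, BRCA1, all lay above.

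At the level of single genes, 3 of the 157 fell (1.91%, against 0.073% of all genes) and none rose (edgeR adjusted p under 0.05), while 97 (61.8%, against 2.69%) were lower at an unadjusted p under 0.05. Without OA 1 the number that fell was 70 of 157 (44.6%, against 1.82% of all genes tested) and the median was −1.80, with 148 of 157 negative (94.3%, against 50.9% of all genes). It was 13 with 6 separate libraries, 41 in DESeq2 and 0 in limma-voom, against 25, 87 and 4 of all genes tested. Without control 1 or control 2 it was 0 (0 and 9 of all genes), and without control 3 it was 8 (28 of all genes). Taken library by library, 132 of the 157 genes were below the lowest control in OA 1, 136 in OA 2 and 137 in OA 3. Of all 13699 genes tested, 5580 were below it in OA 1, 3915 in OA 2 and 3897 in OA 3. Scaled by library totals, 155 of the 157 were negative, with a median of −1.92. On that scale 9058 of all 13699 genes were negative, with a median of −0.26.

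CDT1 (ENSOCUG00000024118), which loads the replicative helicase onto origins, was at 26.5, 31.6 and 16.3 CPM in control and at 4.01, 1.61 and 1.33 CPM in OA 1, 2 and 3. It fell with a log2 fold change of −3.26 ± 0.61 (SE; edgeR adjusted p = 0.0457). OA 1 lay between the controls and the pair, and without OA 1 the value was −4.06 (adjusted p = 0.000224). ANLN (ENSOCUG00000005159), the anillin scaffold of the cytokinetic ring, was at 36.0, 45.4 and 33.1 CPM in control and 6.30, 6.80 and 7.20 CPM in OA. It fell by 2.52 ± 0.48 on the log2 scale (edgeR adjusted p = 0.0457), and its 3 OA libraries lay close together. KNTC1 (ENSOCUG00000013792), part of the complex that recruits dynein to kinetochores, was at 24.1, 39.6 and 28.6 CPM in control and 5.58, 4.84 and 4.96 CPM in OA, and it fell by 2.56 ± 0.50 (edgeR adjusted p = 0.0494). Without OA 1 the log2 fold change of ANLN was −2.42 and that of KNTC1 was −2.63, and both passed.

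Among genes of replication, 32 of 33 tested were negative, with a median of −1.34 (−1.42 without OA 1) and 23 of 33 below all controls (8.26% of all genes). CDC45, a subunit of the replicative helicase, was at 5.86, 4.07 and 5.53 CPM in control and 0.429, 0.403 and 0.427 CPM in OA (log2 fold change −3.59 ± 0.72, edgeR adjusted p = 0.055, not past the threshold). MCM4, also of the helicase, was at 48.2, 40.1 and 25.6 CPM in control and 7.58, 6.57 and 5.65 CPM in OA (−2.48 ± 0.50, edgeR adjusted p = 0.055). Neither gene overlapped between the groups. POLE, the catalytic subunit of the leading-strand polymerase, was at 62.6, 44.7 and 31.1 CPM in control, 11.7 CPM in OA 1, and 4.78 and 5.44 CPM in the pair (−2.48 ± 0.55, edgeR adjusted p = 0.0787). For nucleotide supply and chromatin assembly, 11 of 12 were negative and the median was −1.07 (−1.44 without OA 1). RRM2, the small subunit of ribonucleotide reductase, was at 29.2, 18.2 and 13.6 CPM in control and 4.44, 2.30 and 3.04 CPM in OA (−2.54 ± 0.56, edgeR adjusted p = 0.0787). CDCA7, a chromatin factor, had −3.17 ± 0.66 (edgeR adjusted p = 0.0629).

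Genes of mitotic entry and the spindle were negative in 37 of 37 (48.6% of all genes were), with a median of −1.84 (−2.40 without OA 1). Of these, 32 lay below all controls (8.26% of all genes). TPX2, which organises spindle microtubules, was at 28.2, 28.6 and 24.6 CPM in control and 5.72, 5.07 and 4.69 CPM in OA (−2.36 ± 0.48, edgeR adjusted p = 0.055). TTK, a kinase of the spindle checkpoint, was at 6.65, 9.27 and 11.1 CPM in control and 1.57, 1.21 and 0.960 CPM in OA (−2.80 ± 0.61, edgeR adjusted p = 0.0749). In both genes the OA libraries were below every control by a wide margin relative to the spread within each group. BUB1, CDCA8, UBE2C, CENPF, BUB1B and CDK1 had log2 fold changes of −2.56, −2.60, −2.98, −2.03, −2.03 and −2.30 and did not pass. Kinetochore and centromere genes were negative in 23 of 24 (median −1.60, or −1.69 without OA 1), with KNL1, the kinetochore scaffold, at −2.58 ± 0.56 (edgeR adjusted p = 0.0719). Cytokinesis genes were negative in 9 of 9 (median −2.08, also without OA 1). Condensin, cohesin and chromosome structure genes were negative in 18 of 18 (median −0.82), or in 14 of 18 without OA 1 (−1.27), and genes of recombination and replication stress in 22 of 24 (median −1.54, or −1.61). CLSPN, which relays the replication checkpoint signal, was the repair gene of smallest p (−2.72 ± 0.59, edgeR adjusted p = 0.0782).

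The 9 lower genes named by rule that did not pass, which are CDC45, MCM4, TPX2, CDCA7, KNL1, TTK, CLSPN, RRM2 and POLE, all passed without OA 1, and all but POLE (adjusted p = 0.0539) passed with 6 separate libraries (edgeR). MKI67, the proliferation antigen, was at 63.2, 71.5 and 74.2 CPM in control, 50.5 CPM in OA 1, and 17.2 and 16.7 CPM in the pair. It did not pass (−1.06 ± 0.51, edgeR adjusted p = 0.567), and passed without OA 1 (−2.01, adjusted p = 0.00387). The cell cycle regulators were less uniform: 22 of 25 were negative, with a median of −0.71, and none passed, while without OA 1 the count was 19 of 25 and the median −0.73. FOXM1, a transcription factor of mitotic genes, was at 38.0, 27.0 and 20.8 CPM in control, 13.0 CPM in OA 1, and 3.97 and 3.36 CPM in the pair (−1.82 ± 0.59, edgeR adjusted p = 0.266). GADD45A, a stress-induced gene linked to growth arrest, lay the other way, at 3.27, 3.77 and 6.07 CPM in control and 9.01, 10.5 and 12.001 CPM in OA (1.22 ± 0.52, edgeR adjusted p = 0.469). BRCA1, a repair gene, was at 105, 95.4 and 98.2 CPM in control and 136, 126 and 124 CPM in OA (0.39 ± 0.42, edgeR adjusted p = 0.804).

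**Figure D2:**
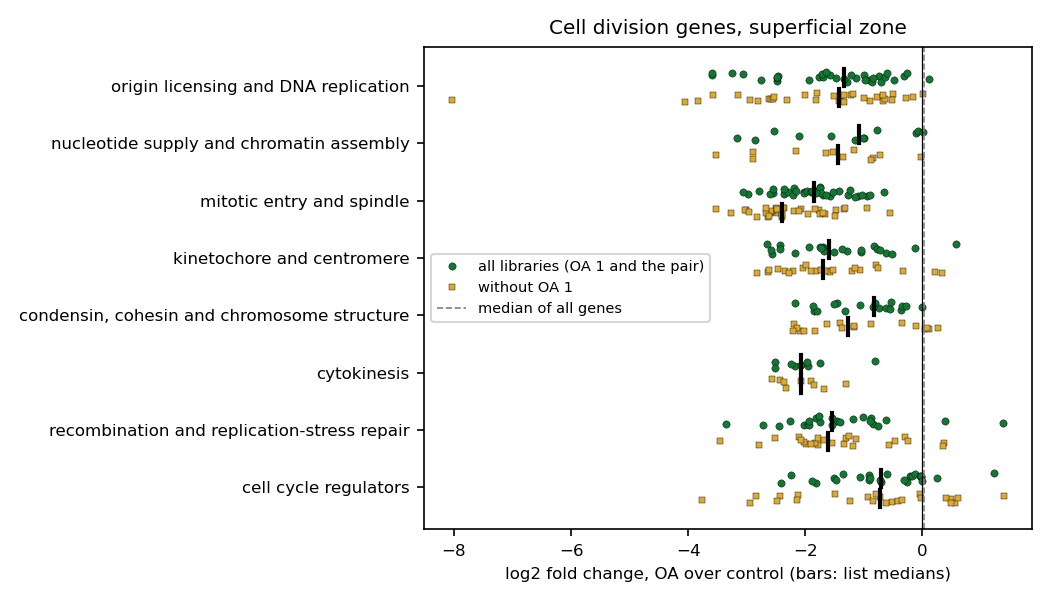
Each point is the log2 fold change of a gene, OA over control, in 8 lists of cell division and the cell cycle, from all libraries (circles) and without OA 1 (squares); bars are list medians, and the dashed line is the median of all genes. The medians lie between −2.08 and −0.71 with all libraries and between −2.40 and −0.73 without OA 1. The square at −8.04 is CDC6, which had no count in OA 2 or OA 3, so that this fitted value is no bound.

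The cell type lists did not move in 1 way beside these genes. The chondrocyte list median was 8.87 to 9.47 log2 CPM in control, 9.31 in OA 1, and 7.59 and 7.67 in the pair. The list medians of skeletal muscle, neutrophil and macrophage genes, described below, were 3.58, 5.73 and 1.15 on the log2 scale of OA over control, or 4.46, 2.60 and 0.77 without OA 1. The part of cell composition in the lower level of cell division genes was not tested.

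Other genes that fell were a collagen and a pair of potassium channels. COL17A1 (ENSOCUG00000003049), a transmembrane collagen known from the hemidesmosomes of epithelia, was at 37.8, 57.4 and 24.1 CPM in control and 2.43, 1.38 and 2.08 CPM in OA. It fell by 4.28 ± 0.59 on the log2 scale (39.8 ± 16.7 CPM, SD, n = 3, to 2.08 ± 0.50 CPM, n = 2; edgeR adjusted p = 0.00929). COL17A1 was at 0.304, 0.220 and 2.81 CPM in control condylar cartilage 1, 2 and 3. Its level in each OA superficial zone library lay above condylar libraries 1 and 2 and below condylar library 3. Without OA 1 its log2 fold change was −4.49 (edgeR adjusted p = 0.000136). The keratins KRT18, KRT8 and KRT5, which are the 3 epithelial markers tested, were at 2.25 CPM or less in every superficial zone library, and KRT18 (−2.82 ± 0.99, edgeR adjusted p = 0.333) did not pass.

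KCNA1 (ENSOCUG00000004459), a voltage-gated potassium channel, was at 7.10, 10.9 and 8.89 CPM in control, 0 CPM in OA 1, and 0.346 and 0.053 CPM in the pair. It fell, with 290 counts over the control libraries and 7 over the OA libraries (edgeR adjusted p = 0.0102). KCNA1 passed the filter on low counts only through control, so its difference is partly set by that filter. KCNH5 (ENSOCUG00000008859), of another family of voltage-gated channels, was at 5.74, 6.63 and 7.92 CPM in control and 0.715, 0.461 and 0.427 CPM in OA (−3.62 ± 0.68, edgeR adjusted p = 0.0457). Neither channel overlapped between the groups, and both passed without OA 1. KCNH5 was not on the potassium channel list. Potassium channels as a list were balanced, with 13 positive and 12 negative of 25, a median of 0.04 (−0.34 by library totals, −0.31 without OA 1), and of its members KCNA1 alone fell. KCNC4, another voltage-gated channel, was at 2.82, 1.05 and 0.976 CPM in control, 0.859 CPM in OA 1, and 18.5 and 16.9 CPM in the pair, and did not pass (edgeR adjusted p = 0.321). The 4 lower genes without a symbol comprised 3 protein-coding genes and a processed pseudogene.

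**Figure D3:**
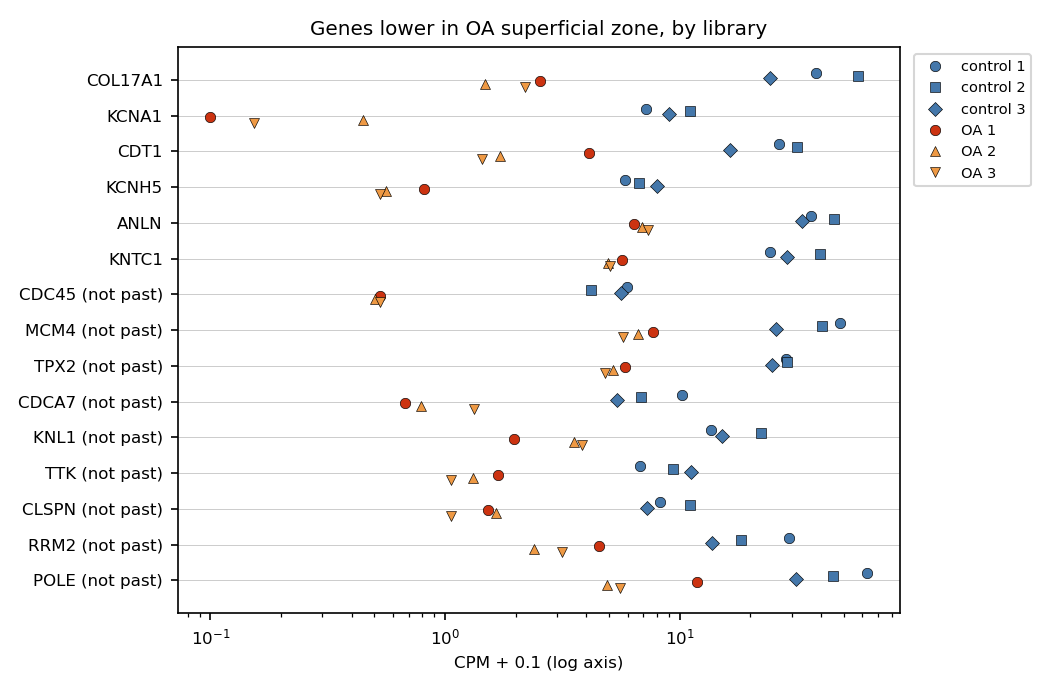
CPM of the 15 lower genes named by rule in the 6 superficial zone libraries, on a log axis with 0.1 added; genes marked as not past had an adjusted p over 0.05. In each of the 15 genes the 3 OA libraries lie below the 3 controls.

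Genes of neutrophil granules rose. LCN2 (ENSOCUG00000021002), which encodes lipocalin 2, was at 0, 0.377 and 0.542 CPM in control, 59.1 CPM in OA 1, and 3.17 and 3.04 CPM in the pair (6.57 ± 1.09, edgeR adjusted p = 0.0247). CAMP (ENSOCUG00000015518), the cathelicidin, was at 0.338, 0.226 and 0.325 CPM in control, 30.6 CPM in OA 1, and 1.96 and 1.60 CPM in the pair (5.73 ± 0.99, edgeR adjusted p = 0.0301). All 3 OA libraries were above the controls for both genes, and OA 1 was far above the pair. LTF (ENSOCUG00000023796), lactoferrin, was at 0.113, 0.452 and 0.434 CPM in control, 42.4 CPM in OA 1, and 1.84 and 2.03 CPM in the pair (5.95 ± 1.04, edgeR adjusted p = 0.0301). S100A8 (ENSOCUG00000009566), a subunit of calprotectin, was at 0.113, 0.301 and 0.217 CPM in control, 16.9 CPM in OA 1, and 1.32 and 1.76 CPM in the pair (5.31 ± 0.97, edgeR adjusted p = 0.0396).

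The gene that the naming table calls MCP-1 (ENSOCUG00000021307, with the synonyms CS-4 and NP-2) was at 0.338, 0.151 and 0.434 CPM in control, 66.5 CPM in OA 1, and 3.86 and 2.99 CPM in the pair, and it rose by 6.83 ± 1.03 (edgeR adjusted p = 0.0139). It is a rabbit defensin gene with close relatives, between which the counting may have divided reads, and not the chemokine of the same abbreviation. Without OA 1, LCN2 (adjusted p = 0.0393) and MCP-1 (0.0129) still passed, whereas CAMP (0.151), LTF (0.164) and S100A8 (0.152) did not (edgeR). Of 12 listed neutrophil and marrow genes 5 were tested and 4 of these rose (0.241% of all genes did). Without OA 1 the count was 1 of 5 (2.3% of all genes). The summed level of the 11 in the table was 1.91 to 4.595 CPM in control, 218 CPM in OA 1, and 12.2 CPM in each of the pair. MMP8, the neutrophil collagenase, had no count in any control. A gene with so few control counts passes the filter on low counts only through OA, so its difference is partly set by that filter.

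The erythroid list moved with the neutrophil list in OA 1: its summed level was 59.7 to 76.1 CPM in control, 189 CPM in OA 1, and 63.0 and 63.3 CPM in the pair. Its median log2 fold change was 1.93 over 6 genes, and 0.31 without OA 1. EPX, the eosinophil peroxidase, was at 0.563, 0.377 and 0.325 CPM in control, 8.44 CPM in OA 1, and 1.15 and 0.640 CPM in the pair (3.40 ± 0.92, edgeR adjusted p = 0.159). Osteoblast and osteocyte genes had a list median of 5.12 to 6.04 log2 CPM in control, 7.97 in OA 1, and 5.72 and 5.77 in the pair, and osteoclast genes were also highest in OA 1 (6.26 log2 CPM). The part of these cell types in the higher neutrophil genes was not tested.

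No macrophage or myeloid gene passed with all libraries. All 15 tested had a positive log2 fold change (51.4% of all genes did), with a median of 1.15, while without OA 1 the count was 13 of 15 and the median 0.77. In 7 of 15 the OA libraries lay above all controls (9.45% of all genes). ITGAM, the integrin alpha M chain, was at 4.17, 2.94 and 4.45 CPM in control, 30.8 CPM in OA 1, and 17.5 and 8.69 CPM in OA 2 and OA 3 (2.49 ± 0.52, edgeR adjusted p = 0.0629), with OA 2 and OA 3 unlike each other. CSF1R, the receptor of macrophage colony-stimulating factor, was at 55.6, 47.99 and 62.9 CPM in control, 311 CPM in OA 1, and 106 and 107 CPM in the pair (1.90 ± 0.50, edgeR adjusted p = 0.134). Its ligand gene CSF1 was at 87.2, 71.4 and 84.5 CPM in control, 348 CPM in OA 1, and 140 and 138 CPM in the pair (1.58 ± 0.48, edgeR adjusted p = 0.221). Neither receptor nor ligand overlapped between the groups. C1QC of complement (1.47 ± 0.44) and the signalling adaptor TYROBP (1.53 ± 0.46) did not pass either. No lymphocyte gene of 16 listed reached the filter on low counts, and the summed level of the 7 in the table was 1.24 to 1.63 CPM in control and 1.97 to 10.02 CPM in OA.

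Genes known from striated muscle were among those that rose. MYO18B (ENSOCUG00000006734), an unconventional myosin of striated muscle, was at 3.49, 1.96 and 1.19 CPM in control, 37.8 CPM in OA 1, and 22.3 and 24.5 CPM in the pair (3.78 ± 0.55, edgeR adjusted p = 0.0115). XIRP2 (ENSOCUG00000017551), an actin-binding protein of muscle, was at 6.98, 1.36 and 1.08 CPM in control, 21.5 CPM in OA 1, and 112 and 111 CPM in the pair (4.43 ± 0.81, edgeR adjusted p = 0.0396). The pair was higher than OA 1 for XIRP2 and lower for MYO18B, and without OA 1 the log2 fold changes were 5.204 and 3.43, both past the threshold. TRDN (ENSOCUG00000008064), the triadin of the calcium release complex, was at 0.225, 0.075 and 0 CPM in control, 1.43 CPM in OA 1, and 14.1 and 12.4 CPM in the pair, and it rose (edgeR adjusted p = 0.0308). PPP1R3A (ENSOCUG00000000303), which targets a phosphatase to muscle glycogen, was at 0.451, 0.075 and 0 CPM in control, 2.00 CPM in OA 1, and 13.6 and 12.6 CPM in the pair (5.48 ± 1.03, edgeR adjusted p = 0.0457). Over the control libraries TRDN had 3 counts and PPP1R3A had 5. Both passed the filter on low counts only through OA, so their differences are partly set by that filter.

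All 10 tested genes of the skeletal muscle list had an unadjusted p under 0.05 (6.56% of all genes were higher at that level) and none passed, with a median of 3.58. Without OA 1 all 10 rose (2.3% of all genes did), with a median of 4.46. ACTA1, the skeletal muscle actin, was at 58.0, 8.21 and 8.13 CPM in control, 110 CPM in OA 1, and 698 and 689 CPM in the pair (4.02 ± 0.88, edgeR adjusted p = 0.0787). The 10 genes are 10 of 18 listed, their summed level was 255, 32.7 and 25.6 CPM in control 1, 2 and 3, 455 CPM in OA 1, and 2191 and 2182 CPM in the pair, and none was at 0 in any of these libraries. Control 1 was thus above the other controls for muscle genes and near OA 1. In the condylar cartilage, scaled over all 12 libraries, MYO18B, XIRP2, TRDN and PPP1R3A were highest in a control library, control 3. They were at 26.9, 118, 14.2 and 10.4 CPM in that library. In control condylar cartilage 1 and 2 each was at 2.34 CPM or less, and in the OA condylar cartilage at 4.97 CPM or less. The amount of muscle tissue in each sample was not measured, and its part in these genes was not tested.

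Genes of lipid and isoprenoid metabolism included some of the clearest differences. IDI2 (ENSOCUG00000030959), which isomerises the building block of isoprenoids, was at 1.35, 0.753 and 2.28 CPM in control, 17.2 CPM in OA 1, and 47.4 and 42.9 CPM in the pair. It rose by 4.43 ± 0.61 on the log2 scale (1.46 ± 0.77 CPM, SD, n = 3, to 31.1 ± 19.8 CPM, n = 2; edgeR adjusted p = 0.00929), and by 5.01 without OA 1 (adjusted p = 1.43e-06). Of the 19 tested genes of sterol and isoprenoid synthesis, IDI2 included, 15 were negative (48.6% of all genes were), 9 lay below all controls (8.26% of all genes), and the median was −0.55 (−0.67 without OA 1). STARD4, a sterol carrier, was at 39.3, 30.9 and 33.8 CPM in control and 9.73, 16.1 and 12.001 CPM in OA (−1.54 ± 0.46, edgeR adjusted p = 0.211). The biosynthetic enzymes CYP51A1 (−1.22 ± 0.48), SQLE (−1.16 ± 0.48) and HMGCS1 (−0.995 ± 0.46) also lay below all controls without passing.

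LPL (ENSOCUG00000008236), lipoprotein lipase, was at 12.3, 9.42 and 4.34 CPM in control, 74.4 CPM in OA 1, and 52.3 and 47.8 CPM in the pair (2.83 ± 0.50, edgeR adjusted p = 0.0328). CD36, a fatty acid transporter, was at 1.46, 0.904 and 0.651 CPM in control and 6.15, 10.3 and 10.7 CPM in OA (3.05 ± 0.62, edgeR adjusted p = 0.055). CIDEA, a protein of lipid droplets, was at 1.24, 0.678 and 0.651 CPM in control and 6.87, 6.57 and 5.87 CPM in OA (2.93 ± 0.63, edgeR adjusted p = 0.0719). In all 3 genes OA 1 and the pair were alike in lying several times above the controls. Without OA 1 the log2 fold change of LPL was 2.54 (edgeR adjusted p = 0.00115). CD36 and CIDEA passed without OA 1 and with 6 separate libraries. The adipocyte list, which includes LPL and CIDEA, was positive in 6 of 6 genes (51.4% of all genes were), with a median of 1.94 (1.64 without OA 1). The summed level of its genes was 72.0 to 82.6 CPM in control and 154 to 169 CPM in OA.

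Matrix genes that passed were an ADAMTS protease and an elastic fibre protein. ADAMTS16 (ENSOCUG00000009507) was at 8.56, 4.44 and 3.47 CPM in control, 42.1 CPM in OA 1, and 27.2 and 31.5 CPM in the pair (2.698 ± 0.50, edgeR adjusted p = 0.0457). ADAMTS15, a protease that cuts proteoglycans, was at 3.27, 3.31 and 4.12 CPM in control and 20.2, 16.3 and 16.5 CPM in OA (2.35 ± 0.48, edgeR adjusted p = 0.055), and it passed without OA 1 and with 6 separate libraries. For both proteases the lowest OA library was more than 3 times the highest control, and ADAMTS16 had 2.45 without OA 1 (edgeR adjusted p = 0.00186). ADAMTS5, the aggrecanase, was at 31.1, 21.1 and 25.5 CPM in control, 80.4 CPM in OA 1, and 41.6 and 41.5 CPM in the pair (1.23 ± 0.45, edgeR adjusted p = 0.356). MMP1, a collagenase, lay the other way, at 10.5, 13.9 and 6.40 CPM in control, 3.72 CPM in OA 1, and 0.922 and 1.55 CPM in the pair (−2.12 ± 0.65, edgeR adjusted p = 0.224; −3.02 and passing without OA 1).

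Matrix-degrading proteases as a list were positive in 25 of 29 (51.4% of all genes were), with a median of 0.37 and 7 above all controls (9.45% of all genes). Without OA 1 the count was 17 of 29 (median 0.40). The classical OA genes MMP13, at 76.8, 92.1 and 241 CPM in control and 205, 88.0 and 90.7 CPM in OA, ADAMTS4 (0.11 ± 0.45) and MMP3 (0.01 ± 0.74) overlapped between the groups and did not pass. MMP9, a gelatinase made by osteoclasts and neutrophils, was at 119, 105 and 270 CPM in control, 1117 CPM in OA 1, and 87.6 and 84.0 CPM in the pair. Of 15 protease inhibitors and plasminogen genes none passed (median 0.32, or 0.06 without OA 1). TIMP1, the tissue inhibitor of metalloproteinases, was at 243, 223 and 231 CPM in control and 157, 100 and 97.7 CPM in OA, below every control (−0.87 ± 0.46, edgeR adjusted p = 0.629).

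MFAP4 (ENSOCUG00000015162), a glycoprotein of elastic microfibrils, was at 55.4, 43.8 and 56.7 CPM in control and 218, 302 and 289 CPM in OA, and it rose by 2.30 ± 0.44 (52.0 ± 7.09 CPM, SD, n = 3, to 257 ± 54.8 CPM, n = 2; edgeR adjusted p = 0.0457). FBLN2, fibulin 2, was at 140, 151 and 143 CPM in control and 423, 388 and 377 CPM in OA (1.47 ± 0.43, edgeR adjusted p = 0.207). For both proteins of elastic fibres OA 1 and the pair lay together above the controls, and without OA 1 MFAP4 had 2.53 (edgeR adjusted p = 0.000136). MFAP5 separated them, with 82.9, 50.2 and 87.5 CPM in control, 85.3 CPM in OA 1, and 395 and 379 CPM in the pair (1.69 ± 0.57, edgeR adjusted p = 0.312). COL12A1, a fibril-associated collagen, was at 11486, 9688 and 8080 CPM in control and 2825, 4679 and 4689 CPM in OA (−1.38 ± 0.55, edgeR adjusted p = 0.429). The 35 fibrous and elastic matrix genes had a median of 0.25, which turned to −0.05 with library totals, and MFAP4 was the 1 member that passed. Without OA 1, 5 of them rose (2.3% of all genes did), including the collagen XIV gene COL14A1 and the proteoglycan gene DCN.

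The direction of the cartilage genes depended on OA 1. The 16 cartilage matrix genes had a median log2 fold change of 0.58 with all libraries and −1.12 without OA 1, and none passed with all libraries. ACAN, aggrecan, was at 6175, 5778 and 4824 CPM in control, 15690 CPM in OA 1, and 1987 and 2009 CPM in the pair (0.65 ± 0.69, edgeR adjusted p = 0.804; −1.46 without OA 1). COL2A1 changed from 1.90 ± 0.90 (edgeR adjusted p = 0.560) to −1.52, COL10A1 of hypertrophic cartilage from 0.93 ± 1.03 to −1.50, and SOX9, the chondrocyte transcription factor, from 0.40 ± 0.58 to −0.97 without OA 1. For these 4 genes OA 1 was above every control and the pair below most of them. COL1A1, the main collagen of the fibrous layer and of bone, was at 79620, 69455 and 64468 CPM in control, 278988 CPM in OA 1, and 46271 and 46840 CPM in the pair (1.19 ± 0.66, edgeR adjusted p = 0.665; −0.59 without OA 1). CILP, a cartilage matrix protein, was above all controls in both samples, at 74.2, 134 and 52.3 CPM in control, 565 CPM in OA 1, and 184 and 174 CPM in the pair (2.09 ± 0.56, edgeR adjusted p = 0.153). HAPLN1, the link protein, was below them, at 1051, 955 and 1301 CPM in control, 551 CPM in OA 1, and 368 and 369 CPM in the pair (−1.27 ± 0.51, edgeR adjusted p = 0.429).

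Bone and hypertrophy genes behaved alike, with a median of 0.79 over 19 genes that was −0.57 without OA 1. RUNX2, a transcription factor of osteoblasts and hypertrophic chondrocytes, was at 951, 873 and 1013 CPM in control, 337 CPM in OA 1, and 525 and 522 CPM in the pair (−1.14 ± 0.50, edgeR adjusted p = 0.486), below every control. The channel gene PANX3 was at 169, 49.9 and 110 CPM in control, 42.8 CPM in OA 1, and 17.9 and 20.4 CPM in the pair (−1.84 ± 0.59, edgeR adjusted p = 0.258). Lubricin (PRG4) had a log2 fold change of 0.58 ± 0.48 (edgeR adjusted p = 0.784), with OA 1 inside the control range and the pair above it. The 10 superficial zone markers had a median of 0.59 (0.62 without OA 1) and none passed.

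**Figure D4:**
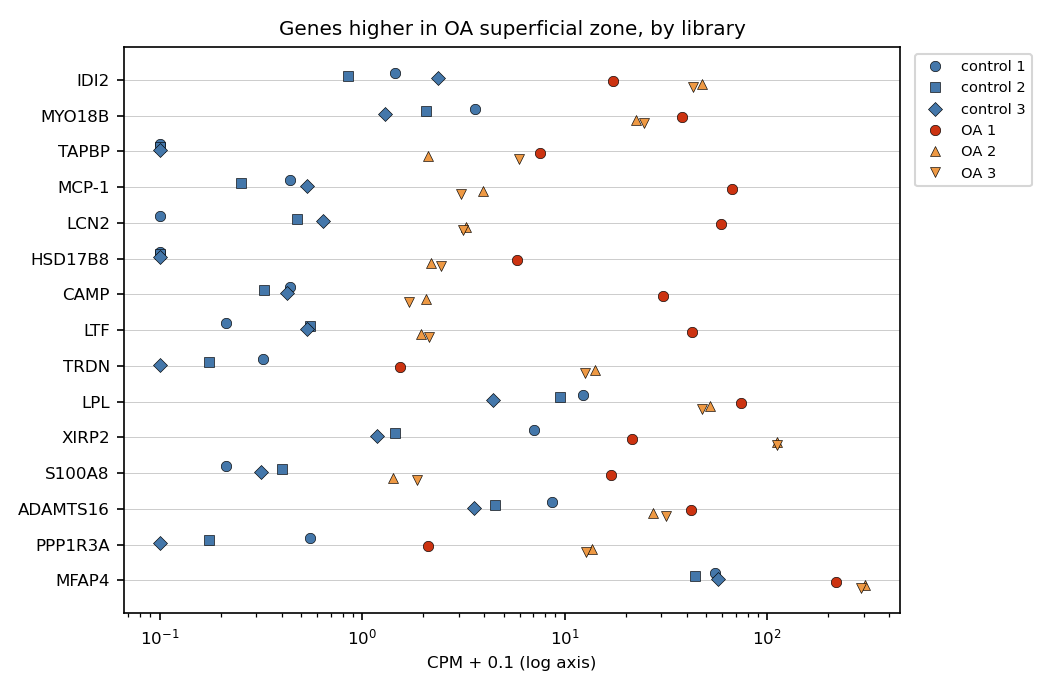
CPM of the 15 higher genes named by rule in the 6 superficial zone libraries, on a log axis with 0.1 added. In each of the 15 genes the 3 OA libraries lie above the 3 controls; OA 1 is farthest for the neutrophil genes MCP-1, LCN2, CAMP, LTF and S100A8, and the pair for TRDN, XIRP2 and PPP1R3A.

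TAPBP and HSD17B8 had no count in any control superficial zone library. Both passed the filter on low counts only through OA, so their differences are partly set by that filter. TAPBP (ENSOCUG00000010563), a chaperone of peptide loading for MHC class I, was at 7.44, 2.02 and 5.81 CPM in OA 1, 2 and 3, a mean of 5.68 ± 2.49 CPM (SD, n = 2), at least 19.8-fold higher than the level that 3 counts per control library allow (edgeR adjusted p = 0.0115). Its level differed between OA 2 and OA 3 although these are near-duplicates. HSD17B8 (ENSOCUG00000020995), a dehydrogenase of steroid and fatty acid metabolism, was at 5.72, 2.07 and 2.35 CPM in OA, at least 13.8-fold higher (edgeR adjusted p = 0.0274). Without OA 1 both genes passed (edgeR adjusted p = 0.000742 for TAPBP and 0.00529 for HSD17B8). In the control condylar cartilage TAPBP was at 6.54, 3.00 and 8.09 CPM, and HSD17B8 at 0, 0 and 3.03 CPM. The 12 tested genes of antigen presentation were positive in 10 (51.4% of all genes were), with a median of 1.25 (0.64 without OA 1). TAP1, the peptide transporter (1.91 ± 0.64), and CD74, the invariant chain of MHC class II (1.16 ± 0.43), lay above all controls without passing.

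Of the other genes that rose, 4 encode ribosomal RNA, beside the higher share of ribosomal RNA in OA libraries. SCARNA6, a small Cajal body RNA, was at 4.62, 7.38 and 6.29 CPM in control, 114 CPM in OA 1, and 16.0 and 17.3 CPM in the pair (edgeR adjusted p = 0.0457). Among the 33 genes that rose, OA 1 was more than 5 times the mean of the pair in 11, and the pair more than 5 times OA 1 in 5. OA 2 and OA 3 differed by more than 2-fold, or 1 of them alone was at 0, in 10 of the 43 genes.

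**Figure D5:**
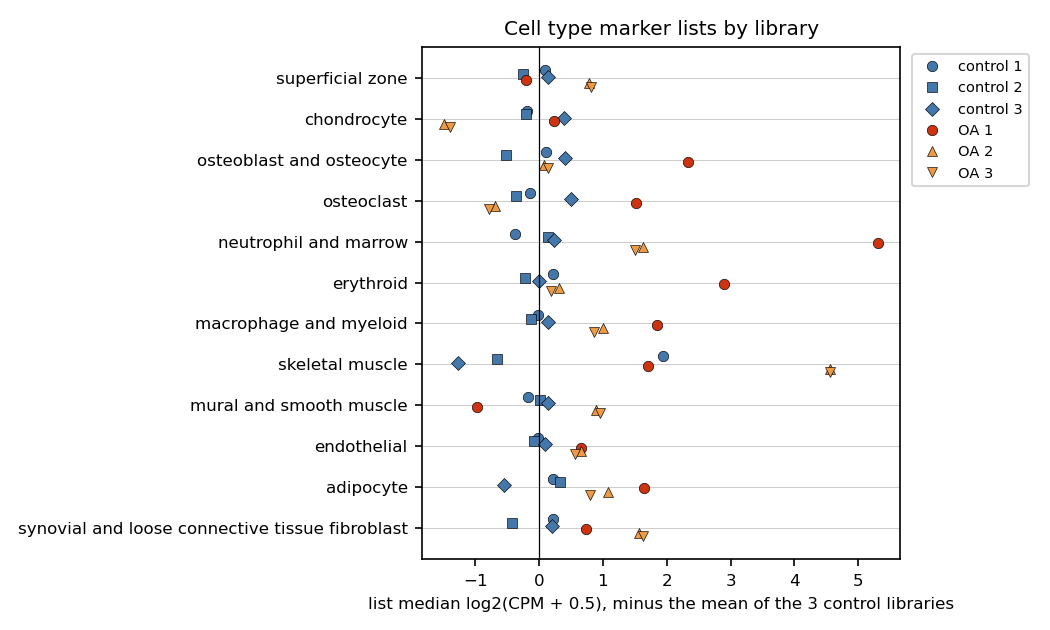
Median log2(CPM + 0.5) of each cell type list in each superficial zone library, minus the mean of the 3 controls. OA 1 is highest for the neutrophil, erythroid, osteoblast, osteoclast and macrophage lists, and the pair is highest for skeletal muscle and lowest for chondrocyte genes.

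Vessel, mural and fibroblast lists held no gene that passed with all libraries. Endothelial genes were positive in 10 of 11 (51.4% of all genes were), with a median of 0.45 (0.58 without OA 1). VWF, the von Willebrand factor, was at 52.7, 59.1 and 31.8 CPM in control and 153, 142 and 143 CPM in OA (1.62 ± 0.44, edgeR adjusted p = 0.162). The list of mural cells and smooth muscle had a median of 0.66 (0.75 without OA 1), and synovial and loose connective tissue fibroblast genes a median of 0.88 (1.08). DPT, a fibroblast matrix protein, was at 90.0, 42.8 and 59.7 CPM in control, 67.7 CPM in OA 1, and 278 and 277 CPM in the pair (1.43 ± 0.57, edgeR adjusted p = 0.419). Schwann cell and nerve genes had a median of −0.24. No gene of the nerve list passed either.

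Clock genes separated the groups in both directions without passing. ARNTL, which encodes the core activator BMAL, was at 15.8, 10.8 and 15.1 CPM in control and 44.1, 58.5 and 62.4 CPM in OA (1.91 ± 0.43, edgeR adjusted p = 0.0842). Its relative NPAS2 was at 17.6, 15.8 and 15.5 CPM in control and 49.4, 50.002 and 53.6 CPM in OA (1.63 ± 0.41, edgeR adjusted p = 0.122). CIART, a repressor of the clock, was at 30.0, 20.4 and 21.0 CPM in control and 5.44, 5.36 and 5.92 CPM in OA (−2.10 ± 0.49, edgeR adjusted p = 0.0948). In these 3 genes OA 1 lay with the pair and no library of one group overlapped the other. NFIL3, a repressor of the same pathway, was at 1.91, 1.51 and 1.84 CPM in control and 7.15, 7.14 and 6.61 CPM in OA (1.99 ± 0.56, edgeR adjusted p = 0.179). ARNTL and CIART passed with 6 separate libraries, and all 4 passed without OA 1. The list as a whole was balanced, with 7 positive and 8 negative genes of 15 and a median of −0.26 (−0.32 without OA 1). The time of day of collection is not in the labels, so that it and disease state cannot be told apart.

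Genes of prostaglandin synthesis and signalling were positive in 7 of 10 (51.4% of all genes were), with a median of 0.96 (0.38 without OA 1). PTGS1, the constitutive cyclooxygenase, was at 23.9, 29.2 and 20.5 CPM in control, 97.6 CPM in OA 1, and 56.6 and 62.7 CPM in the pair (1.67 ± 0.43, edgeR adjusted p = 0.132). PTGER4, a receptor of prostaglandin E, was at 3.83, 3.01 and 6.18 CPM in control and 16.5, 13.9 and 15.1 CPM in OA (1.83 ± 0.50, edgeR adjusted p = 0.166). PTGS2, the inducible cyclooxygenase, lay the other way, at 17.5, 30.0 and 9.44 CPM in control, 2.72 CPM in OA 1, and 10.9 and 9.07 CPM in the pair, where it overlapped the controls (−1.54 ± 0.64, edgeR adjusted p = 0.454). Inflammatory cytokines and NF-kB targets had a median of 0.35 over 14 genes, and interferon response genes a median of 0.62 over 14 (0.12 without OA 1), and none passed. Of the inflammatory genes, TNFAIP6, a hyaluronan-binding protein, was at 0.676, 0.377 and 1.74 CPM in control, 1.00 CPM in OA 1, and 6.51 and 4.48 CPM in the pair (edgeR adjusted p = 0.516).

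No gene of the developmental signalling lists passed. Hedgehog and PTHrP genes had a median of 0.09 over 13 genes that was −0.88 without OA 1, and −0.21 with library totals. PTCH1, the hedgehog receptor and a target of the pathway, was at 767, 654 and 429 CPM in control, 363 CPM in OA 1, and 104 and 99.4 CPM in the pair (−1.42 ± 0.60, edgeR adjusted p = 0.466). GLI1, a transcription factor and target, was at 124, 173 and 89.0 CPM in control, 68.5 CPM in OA 1, and 25.5 and 27.0 CPM in the pair (−1.45 ± 0.53, edgeR adjusted p = 0.364). Both were below every control in every OA library and passed without OA 1, while IHH, the ligand, was at 28.9, 2.11 and 80.4 CPM in control, 398 CPM in OA 1, and 14.5 and 15.7 CPM in the pair. Wnt genes were positive in 22 of 41, with a median of 0.17 (−0.47 without OA 1, −0.30 with library totals). The Wnt ligand genes WNT9A (1.95 ± 0.56, edgeR adjusted p = 0.192) and WNT5B (1.68 ± 0.52, 0.233) lay above all controls.

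TGF-beta and BMP genes were positive in 22 of 39, with a median of 0.05 with and without OA 1 (−0.23 with library totals). BMP5, a ligand, was at 53.3, 83.2 and 98.2 CPM in control, 13.7 CPM in OA 1, and 43.1 and 46.5 CPM in the pair (−1.40 ± 0.55, edgeR adjusted p = 0.417). FGF genes had a median of 0.21 (−0.12 with library totals, 0.16 without OA 1), retinoic acid genes 0.27 (−0.16 in both), and neurotrophic factors and receptors 0.25 (−0.18 with library totals, −0.06 without OA 1). FGF1, a ligand, was at 4.06, 3.01 and 3.90 CPM in control, 16.3 CPM in OA 1, and 7.78 and 8.11 CPM in the pair (1.71 ± 0.53, edgeR adjusted p = 0.226). GFRA3, the receptor of the neurotrophic factor artemin, was at 7.66, 7.16 and 3.58 CPM in control and 24.9, 16.6 and 18.2 CPM in OA (1.78 ± 0.50, edgeR adjusted p = 0.173). ALDH1A2, which makes retinoic acid, was at 2.25, 0.904 and 1.30 CPM in control, 1.29 CPM in OA 1, and 13.3 and 16.9 CPM in the pair (2.52 ± 0.81, edgeR adjusted p = 0.263), so that OA 1 lay with the controls. Hyaluronan and versican genes had a median of 0.56 (0.13 without OA 1).

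Stress and energy lists held no gene that passed. The median was −0.47 for the unfolded protein response (19 genes, −0.22 without OA 1) and −0.00 for heat shock proteins (12 genes, 0.36 without OA 1). For immediate early genes it was 0.29 (19 genes, −0.03 with library totals, −0.27 without OA 1). It was 0.22 for glycolysis and hypoxia (28 genes, −0.22 with library totals, −0.08 without OA 1). Nuclear genes of oxidative phosphorylation had 0.14 (32 genes, −0.04 with library totals, 0.46 without OA 1). ATF3, a stress-induced transcription factor, was at 20.0, 10.8 and 13.1 CPM in control, 21.2 CPM in OA 1, and 47.1 and 46.6 CPM in the pair (1.22 ± 0.49, edgeR adjusted p = 0.422). VEGFA, the angiogenic factor, overlapped between the groups (0.34 ± 0.54, edgeR adjusted p = 0.848; −0.43 without OA 1). The mitochondrial messenger RNAs had a median of 0.84 over 11 genes (1.78 without OA 1) and overlapped between the groups in each gene. Chondrocyte and bone transcription factors had a median of −0.23 over 19 genes (−0.11 without OA 1). Of 18 genes given in every case 15 were tested, and IL6, IL1B and CDKN1A were not analysed here.

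The condylar cartilage was used to see where the superficial zone differed. The test of the difference of the OA effect between zones passed for 0 of 14438 genes (0%; edgeR; 1265 at an unadjusted p under 0.05), for 0 in limma-voom, for 116 in DESeq2 and for 98 with 12 separate libraries. Without OA superficial zone 1 and control condylar cartilage 3 together, 97 passed. OA condylar cartilage 1 and 2 were near-duplicates as well, with a coefficient of variation of 0.0572 against 0.235 to 0.429 for other pairs of that zone, and were also summed. The values that follow for this zone are scaled over all 12 libraries.

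TPX2 was at 29.3, 34.3 and 20.6 CPM in the control condylar cartilage and 57.9, 60.8 and 33.1 CPM in the OA condylar cartilage, so that the OA libraries overlapped or exceeded the controls there. The difference of its OA effect between the zones was −3.09 ± 0.50 on the log2 scale (unadjusted p = 5.93e-05, edgeR adjusted p = 0.245). For KNTC1 it was −3.03 ± 0.55, for ANLN −2.68 ± 0.53, for CDT1 −3.43 ± 0.74 and for MKI67 −2.74 ± 0.69, and none passed (edgeR adjusted p of 0.245 to 0.312). The neutrophil genes were also higher in the OA condylar cartilage: LCN2 was at 0, 0 and 2.58 CPM in control and 562, 564 and 163 CPM in OA there, and its difference between the zones was −2.21 ± 2.23 (edgeR adjusted p = 0.749). MFAP4 was at 3.497, 7.18 and 21.3 CPM in control and 11.8, 15.9 and 8.26 CPM in OA there, with a difference of 2.26 ± 0.82 (edgeR adjusted p = 0.488), and ADAMTS16 was under 2 CPM in all 6 condylar libraries. ARNTL was higher in OA in both zones, at 19.0, 18.2 and 22.8 CPM in control and 34.5, 35.9 and 49.5 CPM in OA in the condylar cartilage, with a difference of 0.84 that did not pass (edgeR adjusted p = 0.5996).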

How the data were processed

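Bulk RNA was sequenced from 12 libraries in 4 groups of 3. Groups and replicate numbers come from the sample titles. RNA was depleted of ribosomal RNA and made into directional libraries, per the labels. Per the submitters' processing notes the OryCun2.0 build was used, and the tools named, with no role or order, are Salmon 1.1.0, StringTie 2.1.0, STAR 2.7.9a, MultiQC 1.13, Trim Galore 0.6.7 and DESeq2 1.26.0. Per the file headers the table gives, per gene and library, TPM (each column sums to 1000000), log2 TPM, estimated counts and the feature length from Salmon. The authors' heading calls the deposited estimated counts both normalised and raw. Their totals differ between libraries, and they were used as raw counts, rounded to whole numbers. The deposited TPM values served only for the ratios of mitochondrial genes, and the deposited log2 TPM columns were not used in tests. The filter that left 14621 genes is not given in the sources used here, and the highest count of each gene was 11 or more. The library kit is directional, but the strand setting of the counting is not given either, so reads of overlapping genes may be shared.

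The deposited table gave symbols for 9797 genes. Matching its Entrez identifiers to RefSeq genes of another assembly, mOryCun1.1, named 1071 more and left 3753 unnamed. The symbols were equal for 98.3% of the 8472 genes present in both. No coordinates are given.

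Counts of the superficial zone were tested by the quasi-likelihood F test of edgeR 4.0.16 (R 4.3.3; TMM scaling, genes kept by filterByExpr at a minimum count of 10, Benjamini-Hochberg adjustment over 13699 genes, two-sided, threshold 0.05), with OA 2 and OA 3 summed. Each SE was approximated from the log2 fold change and F, as their size over the root of F. CPM is counts per 1000000 of the library size multiplied by its TMM factor (0.653 for OA 1 and 1.03 to 1.12 for the others). Means ± SD count OA 2 and OA 3 as 1 sample. A fold against a group at 0 is a lower bound from 3 counts per library. The difference between zones was an interaction contrast over 10 samples. Alternatives included DESeq2 1.42.0 and limma 3.58.1 voom. The code was tested on simulated data with the same spread in every sample, so that test does not cover a sample that stands apart as OA 1 does. No label says which animal a replicate came from, so the p-values reflect only the spread between these samples, which may be technical.

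Named genes were the 15 higher and 15 lower with a symbol, of smallest p past the threshold and no overlap between groups, filled up to 15 by unadjusted p. To these were added every passing member of 35 process lists and 16 cell type lists, otherwise up to 4 members of smallest p, a panel of 18 OA and cartilage genes, and the 5 genes farthest beyond the control range in each pattern of OA 1 and the pair. SCARNA6 and further members of the lists were named after their values were seen. Some genes that the rule selects are not reported here. The comparison, its lists and its members were chosen with earlier results of these data known. No genome sequence was used here.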

Additional observations from a re-analysis of the deposited data

How the results depend on the processing

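Against 43 genes past the test, library totals gave 0 (810 at an unadjusted p under 0.05), no filter on low counts 26, DESeq2 235, limma-voom with sample weights 94, and 1 model of the 4 groups 3. Leaving out 1 library at a time gave 0 to 577. Splitting OA 2 and OA 3 without OA 1 gave 1416. Median-of-ratios factors gave 44, protein-coding genes alone 43 (33 of the 43 in common), and 6 separate libraries 56. For the difference between zones, 0 became 98 with 12 separate libraries, 116 in DESeq2 and 97 without both libraries that stood apart. It stayed at 0 when any 1 library was left out. None of the 21 named genes that passed changed direction under the alternatives that gave it a value. Without control 2, TRDN did not reach the filter on low counts and so had no value.

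Deviations from the group means correlated at 0.160, −0.061 and 0.241 between libraries of the same replicate number. Control 3 correlated at 0.248 with OA 2 and at −0.261 with OA 1. The deviations of the near-duplicates OA 2 and OA 3 are almost the same, so these values cannot show whether the numbers pair animals. With the number as a block, 1 gene passed in the superficial zone and 21 for the difference between zones. The block turned ACAN to −0.55, SOX9 to −0.28 and MMP13 to −0.0242.

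Genes that did not pass changed sign under some settings. Leaving out 1 library at a time gave log2 fold changes of −1.52 to 2.56 for COL2A1, −0.59 to 1.21 for COL1A1, −1.46 to 0.69 for ACAN, −1.50 to 2.56 for COL10A1, −0.97 to 0.61 for SOX9, −0.43 to 0.68 for VEGFA, −0.18 to 0.17 for ADAMTS4, −0.57 to 0.80 for MMP13 and −0.26 to 0.45 for MMP3. The lowest value was the one without OA 1, except for MMP3 (without control 3). With OA 2 and OA 3 also split in its absence they were −1.52, −0.59, −1.47, −1.50, −0.97, −0.43, −0.18 and −0.57 for the first 8 genes in this order. Library totals gave −0.13 for SOX9, −0.11 for VEGFA, −0.24 for ADAMTS4, −0.35 for MMP13 and −0.13 for MMP3. MMP13 was −0.094 with 6 separate libraries. MMP3 was −0.0117 with median-of-ratios factors and with no filter, and −0.0247 in DESeq2. The cause was not tested. Precision is limited by 2 OA samples, of which 1 stands apart, and low counts limit the neutrophil, lymphocyte and erythroid genes. Counting intervals would cover counting error only.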

Other observations

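Some messenger RNAs of the mitochondrial genome divided the libraries in a way that followed neither disease state nor replicate number. These were ATP6, COX2, COX3, CYTB, ND3 and ND5. The others, COX1, ND1, ND2, ND4 and ND6, did not divide the control superficial zone libraries in this way. ATP6, a subunit of ATP synthase, was at 910, 16.3 and 6.18 CPM in control superficial zone 1, 2 and 3, and at 11.4, 1772 and 1732 CPM in OA 1, 2 and 3. ND5, a subunit of complex I, showed the same split, at 1242, 18.8 and 9.44 CPM in control and 12.2, 2480 and 2421 CPM in OA. As a share of the TPM of COX1, a subunit of cytochrome oxidase, ATP6 was 47.8%, 0.583% and 0.235% in control superficial zone 1, 2 and 3, and 2.07%, 65.1% and 63.7% in OA. In the condylar cartilage it was 37.5%, 1.64% and 34.8% in control and 0.252%, 1.59% and 48.6% in OA. ND1 kept a share of 20.2% to 36.0% of COX1 in all 12 libraries. The split of ATP6, ND5 and the genes like them bears on the mitochondrial list of the comparison, since they separate libraries within each group.

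Some genes were read in OA and not in control. In the whole table of 14621 genes, 28 had no count in the 3 control superficial zone libraries and a count in each of the 3 OA libraries, and 3 genes had the reverse. For 12 of the 28, and for 0 of the 3, the same held in the condylar cartilage. Among the 12, chosen after their values were seen, STMN2, a microtubule regulator of growing axons, had 19, 16 and 15 counts in OA superficial zone 1, 2 and 3, and 22, 14 and 14 in the OA condylar cartilage. The neuronal genes CELF3 (12, 15 and 14 counts) and GRIA2 (19, 7 and 14 counts) were similar in the OA superficial zone, and both were too low to be tested. MMP8, the neutrophil collagenase, had counts of 28, 2 and 3 in OA superficial zone 1, 2 and 3, against 780, 801 and 197 in the deeper condylar cartilage of OA joints. These counts carry no test. The superficial zone libraries held 8329096 to 12168450 counts in control and 10710067 to 16769536 in OA. In the condylar cartilage the totals were 7326255 to 14810886 in control and 14291563 to 16099688 in OA. A gene of few counts is more readily at 0 in a library of lower total, and the part of depth was not tested.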
